A study of Drosophila melanogaster with 6 samples.

Results

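The genes described here are 9 of the 17611 genes in a table of read counts from fly Malpighian tubules: Fas2, Cad99C, Moe, Act5C, Act42A, Act57B, Act87E, Myo31DF and Myo61F. They were chosen by name, as genes of apical adhesion, of the link between membrane and actin, of actin itself and of class I myosins. No measured value enters that rule, but earlier results of these data were known when the genes were chosen. The study sequenced RNA of the renal tubules of Drosophila melanogaster adults that bore gut tumours or did not, in 3 tumour and 3 control libraries. Tumour flies had UAS-yki3SA, which encodes activated Yorkie, a driver of growth, besides tub-GAL80TS, esg-GAL4 and UAS-GFP; control flies had these same transgenes except UAS-yki3SA. All were virgin flies, kept at 18 °C for 6 to 8 days and then for 8 days at 29 °C, where GAL80TS no longer blocks GAL4; per genotype, 80 tubules went into the lysate. The esg-GAL4 driver is active in progenitor cells, and the tubule has progenitors of its own: esg, the gene whose enhancer drives it, averaged 3.75 CPM (counts scaled to library size) in tumour and 5.78 CPM in control libraries. With these 2 groups, what the gut tumour does to the tubule and what yki3SA does inside the tubule's own esg-expressing cells cannot be told apart.

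The principal cells of the tubule carry a dense apical brush border, made of microvilli that each hold a core of bundled actin filaments. Adhesion molecules of the cadherin and immunoglobulin families lie on or between microvilli, ezrin, radixin and moesin proteins tie actin to the membrane, and class I myosins link the actin core to the membrane around it. Flies have cytoplasmic actin genes, used by nearly all cells, and muscle actin genes, and their proteins are almost the same.

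Library totals lay between 34640437 and 49338340 counts, so that a count of 0 allows up to 0.0608 to 0.0866 CPM (3 counts). Values are CPM scaled by TMM, which multiplies library totals by a factor (1.06 to 1.18 in tumour and 0.863 to 0.943 in control libraries), and are given as mean ± SD (n = 3 each). Group differences are log2 fold changes of tumour over control with their standard error (SE), tested with the quasi-likelihood test of edgeR across 9789 genes, and a gene passed where its Benjamini-Hochberg adjusted p was below 0.05. Nothing in the labels ties a group's libraries to separate sets of flies, so the p-values rest on library-to-library spread that may be only technical. The summed CPM of 8 principal cell markers was 6663 to 7905 in tumour and 10774 to 14684 in control libraries, where 3 markers fell (Irk3, NaPi-T and CapaR), and that of 8 stellate cell markers was 1083 to 1240 in tumour and 1487 to 1658 in control libraries, where 3 fell (Prip, Drip and Lkr; 1 when any tumour library was left out). In each of these lists 37.5% of the markers passed, all lower. Of all tested genes 13.0% fell and 27.8% passed in either direction. Fewer cells of a type and less RNA per cell cannot be told apart in RNA from whole tubules.

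All 9 genes passed the filter on low counts. Against a background of 27.8% of all tested genes, 5 of the 9 passed: 3 rose (Act42A, Myo31DF and Myo61F) and 2 fell (Fas2 and Cad99C), where 14.8% of all tested genes rose and 13.0% fell. Moe, Act5C, Act57B and Act87E did not pass. The median log2 fold change of the 9 genes was 0.31, and that of all tested genes 0.08. In the 3 genes that rose, all tumour libraries were above all control libraries, a pattern held by 26.8% of tested genes, and in the 2 that fell all were below, a pattern held by 20.1%. Among those that passed, the actin gene Act42A and the myosin genes Myo31DF and Myo61F were higher, and the adhesion genes Fas2 and Cad99C lower, in tumour tubules. The calls of Cad99C, Myo31DF and Myo61F were each lost in 5 of 6 fits that left out 1 library. A split by role was not tested.

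**Figure D1:**
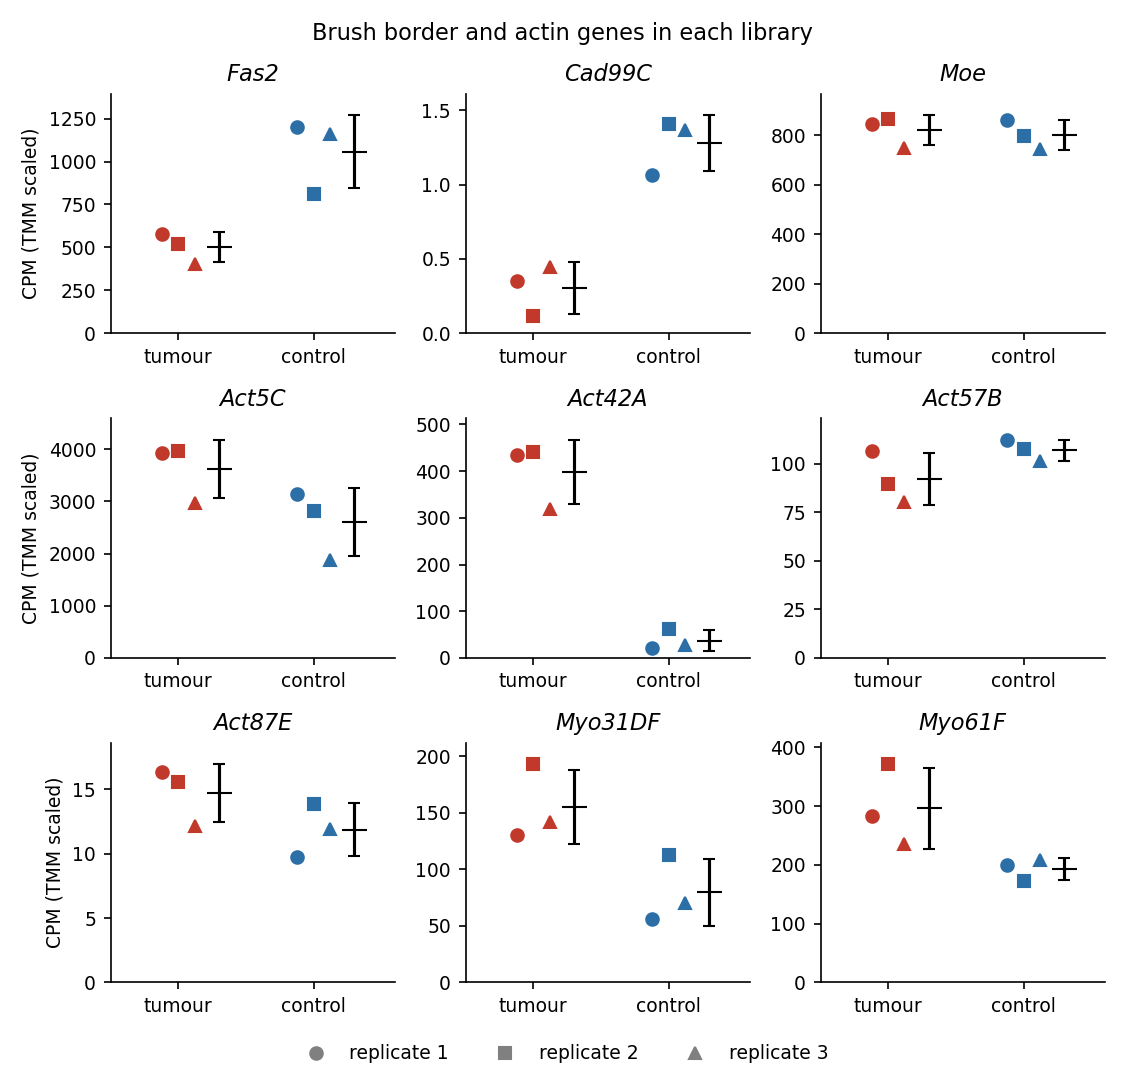
Each panel plots the CPM (TMM scaled, linear axis from 0) of 1 gene in the 3 tumour (red) and 3 control (blue) libraries, with replicate number as symbol and the mean ± SD beside the points. The groups are separate for Fas2, Cad99C, Act42A, Myo31DF and Myo61F and overlap for Moe, Act5C, Act57B and Act87E.

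Fas2 encodes fasciclin 2, an adhesion molecule of the immunoglobulin family that lies on the brush border of the fly tubule, where its amount bears on the length of the microvilli. The gene (FBgn0000635) lies on chromosome X between 4132887 and 4206093 on the minus strand, in the Ensembl BDGP6 annotation, which also gives the coordinates of the other genes below. Fas2 had 581, 517 and 406 CPM in tumour replicates 1, 2 and 3, against 1200.4, 813 and 1158 CPM in control replicates 1, 2 and 3. Every tumour library was below every control library, and control replicate 2 was the lowest control. Its mean was 501 ± 88.6 CPM in tumour and 1057 ± 212 CPM in control libraries. Fas2 fell 2.11-fold (log2 fold change -1.08 ± 0.20 SE, 95% interval -1.53 to -0.63, adjusted p = 0.00595). It passed under all 15 alternative settings, with log2 fold changes of -1.25 to -0.79. The fall lies beside the lower sum of the principal cell markers given above, and the part of those cells in it was not tested.

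Cad99C encodes a protocadherin of microvilli, known best from the follicle cells of the ovary. The gene (FBgn0039709, chromosome 3R, 29841657 to 29854699) was read at very low levels. Cad99C held 13, 5 and 26 counts in tumour replicates 1, 2 and 3, against 42, 52 and 45 counts in control replicates 1, 2 and 3. These are 0.354, 0.113 and 0.448 CPM in tumour and 1.06, 1.41 and 1.37 CPM in control libraries, all above the limit that a count of 0 allows. The groups did not overlap. Summed over libraries, 44 counts in tumour (exact Poisson 95% interval 32.0 to 59.1) stood against 139 counts in control (116.9 to 164.1), and these intervals cover counting error only. Cad99C fell 4.14-fold (log2 fold change -2.05 ± 0.60 SE, 95% interval -3.42 to -0.68, adjusted p = 0.0368). The call rests on the full set of libraries: the adjusted p was 0.0752 without tumour replicate 1, 0.0793 without tumour replicate 2, 0.0696 without control replicate 1, 0.082 without control replicate 2 and 0.0993 without control replicate 3. In a list of germline and follicle cell genes 5 of 10 members also fell (Cp38, Cp18, Vm26Aa, Vm26Ab and Cp36), where 13.0% of all tested genes fell. The list had a summed CPM of 4.01 to 21.7 in tumour and 91.9 to 216 in control libraries. The count that fell in this list was 2 when tumour replicate 2 was left out, 3 for tumour replicate 3, 0 for control replicate 1, 1 for control replicate 2 and 3 for control replicate 3. Its part in the level of Cad99C was not tested.

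Moe encodes Moesin, the fly's protein of the ezrin, radixin and moesin family, which anchors actin filaments to the cell membrane. The gene (FBgn0011661) lies on chromosome X between 8873012 and 8898332. Moe had 844, 864 and 750 CPM in tumour replicates 1, 2 and 3, against 863, 795 and 744 CPM in control replicates 1, 2 and 3. The groups overlapped almost wholly. The log2 fold change was 0.03 ± 0.12 SE with a 95% interval of -0.25 to 0.31 (adjusted p = 0.867). Its level varied little within each group, with a coefficient of variation of 7.44% in tumour and 7.46% in control libraries. Moe passed where library totals alone set the scale (log2 fold change 0.32, adjusted p = 0.0303), a setting that also put the median of all genes at 0.37, and its sign changed under other scalings.

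Set against Moe within each library, a ratio that no scaling factor enters, the log2 ratio of Fas2 to Moe counts was -0.72 ± 0.17 in tumour and 0.38 ± 0.31 in control libraries. All 3 tumour ratios were below all 3 control ratios (difference -1.10, two-sided exact permutation p = 0.1, the smallest that 3 against 3 can give). This ratio and the others given below, apart from the muscle to cytoplasmic ratio and the share of all counts, were chosen after the values were seen. Over the 8 ratios and shares computed, the Benjamini-Hochberg adjusted value of each with a permutation p of 0.1 was 0.114.

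Act5C and Act42A encode the cytoplasmic actins. Act5C (FBgn0000042, chromosome X, 5900861 to 5905399) was the most abundant of the 9 genes and ranked 23 among all tested genes by mean CPM. Act5C had 3919, 3964 and 2977 CPM in tumour replicates 1, 2 and 3, against 3139, 2810.5 and 1882 CPM in control replicates 1, 2 and 3. The groups overlapped, since tumour replicate 3 was below control replicate 1. Its mean was 3620 ± 557 CPM in tumour and 2610 ± 652 CPM in control libraries, and the log2 fold change of 0.47 ± 0.21 SE did not pass (95% interval -0.01 to 0.95, adjusted p = 0.13). Among the alternative scalings, Act5C passed where library totals alone set the scale (log2 fold change 0.75, adjusted p = 0.0134). With TMM it also passed where replicate number was a block in the fit (0.49, adjusted p = 0.0347).

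Act42A (FBgn0000043) lies on chromosome 2R between 6013910 and 6015689 on the minus strand. It rose most among the 9 genes. Act42A had 434, 442 and 319 CPM in tumour replicates 1, 2 and 3, against 21.2, 62.4 and 26.6 CPM in control replicates 1, 2 and 3. The lowest tumour library lay far above the highest control library, control replicate 2. Behind these values stood 15940, 19480 and 18483 counts in tumour and 838, 2307 and 877 counts in control libraries. Act42A averaged 398 ± 68.9 CPM in tumour and 36.8 ± 22.4 CPM in control libraries. It rose 10.8-fold, with a 95% interval of 5.15 to 22.8 (log2 fold change 3.44 ± 0.45 SE, adjusted p = 0.00278). Of all tested genes, 0.664% had a higher log2 fold change, and 1.77% passed with a rise of at least 4-fold. Act42A passed under all 15 alternative settings, with log2 fold changes of 3.16 to 4.06. Its spread relative to the mean was 17.3% in tumour and 60.9% in control libraries.

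The balance between the cytoplasmic actin genes differed with it. For every 100 Act5C counts, Act42A had 11.1, 11.1 and 10.7 counts in tumour replicates 1, 2 and 3, against 0.676, 2.22 and 1.42 counts in control replicates 1, 2 and 3. The tumour libraries lay close together and the control libraries apart from each other. Act42A held 9.89% ± 0.19 of the summed Act5C and Act42A counts in tumour and 1.41% ± 0.751 in control libraries (two-sided exact permutation p = 0.1). Per kilobase of exon the share was 16.7% ± 0.297 in tumour and 2.55% ± 1.34 in control libraries. Act5C thus remained the larger source of cytoplasmic actin transcripts in all 6 libraries. The summed CPM of both genes was 4353, 4406 and 3295 in tumour and 3160, 2873 and 1909 in control libraries, and fitted as 1 gene the sum had a log2 fold change of 0.60 ± 0.21 SE (adjusted p = 0.0658). The coding sequences of fly actin genes are near copies of each other, and the sources used here do not give how reads matching several copies were counted, so the split of counts between actin genes is uncertain.

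**Figure D2:**
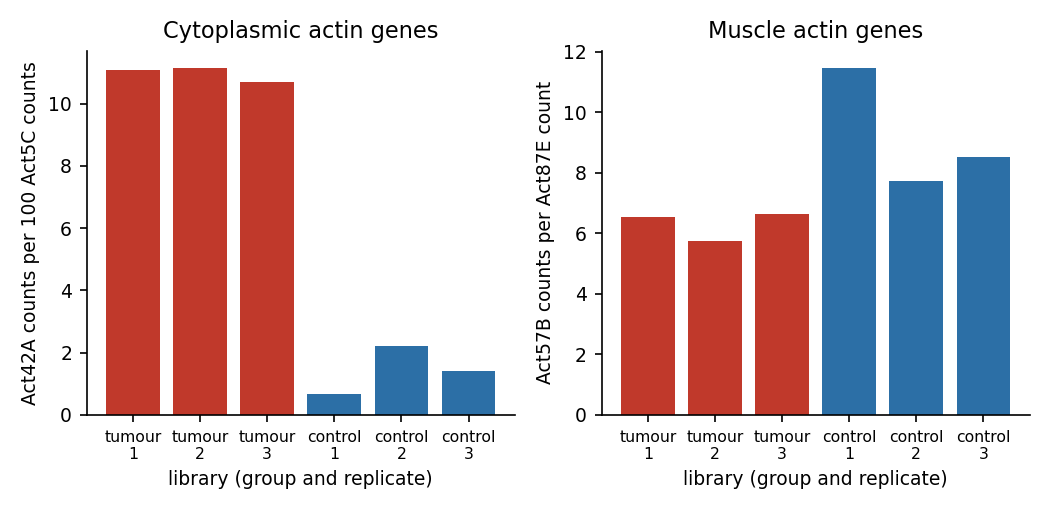
Bars show, for each of the 3 tumour (red) and 3 control (blue) libraries, Act42A counts per 100 Act5C counts (left) and Act57B counts per Act87E count (right), on linear axes from 0. The left ratio is 10.7 to 11.1 in tumour and 0.676 to 2.22 in control libraries, and the right ratio is 5.76 to 6.64 in tumour and 7.74 to 11.5 in control libraries.

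Act57B and Act87E encode muscle actins, which in an organ preparation can come from muscle on or near the tubule. Act57B (FBgn0000044, chromosome 2R, 20944021 to 20946431) contains a small nucleolar RNA gene within its span. Act57B had 107, 89.7 and 80.5 CPM in tumour replicates 1, 2 and 3, against 112, 108 and 101 CPM in control replicates 1, 2 and 3. The groups overlapped in tumour replicate 1, and the log2 fold change of -0.21 ± 0.13 SE did not pass (95% interval -0.51 to 0.08, adjusted p = 0.255); it was 0.068 where library totals alone set the scale.

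Act87E (FBgn0000046, chromosome 3R, 13425983 to 13428375) shares 60 bases of exon with lncRNA:CR45591 on the opposite strand. Act87E had 16.3, 15.6 and 12.1 CPM in tumour replicates 1, 2 and 3, against 9.78, 13.9 and 11.9 CPM in control replicates 1, 2 and 3. The groups overlapped, and the log2 fold change of 0.31 ± 0.19 SE did not pass (95% interval -0.13 to 0.74, adjusted p = 0.258). It passed where library totals alone set the scale (0.58, adjusted p = 0.0496). Act57B counts per Act87E count were 6.54, 5.76 and 6.64 in tumour and 11.5, 7.74 and 8.54 in control libraries, with no overlap (two-sided exact permutation p = 0.1).

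Summed, the muscle actins Act57B and Act87E had a log2 ratio to the cytoplasmic actins Act5C and Act42A of -5.23 ± 0.138 in tumour and -4.45 ± 0.328 in control libraries. The difference of -0.78 separated the groups (two-sided exact permutation p = 0.1), and lay between -0.91 and -0.60 when any 1 library was left out. All 4 genes together held 0.453% ± 0.048 of all counts in tumour and 0.250% ± 0.0567 in control libraries, a difference of 0.203 percentage points that also separated the groups (two-sided exact permutation p = 0.1). The ratio is free of library scaling. The share divides by the library total, a scale on which Moe too was higher (0.0903% in tumour and 0.0725% in control libraries).

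The remaining actin genes of the fly were read at low levels, and of Act79B, Act88F and Arp53D the filter kept Act79B and Act88F. Neither passed in edgeR, and neither had an unadjusted p below 0.05 (0 of 2), nor did either pass in limma. Act79B did not pass in DESeq2, which gave no adjusted p for Act88F. Act88F, the actin of flight muscle, had 17.6, 1.16 and 0.638 CPM in tumour replicates 1, 2 and 3, against 1.19, 0.487 and 0.850 CPM in control replicates 1, 2 and 3. A single library, tumour replicate 1, stood apart with 645 counts, and the log2 fold change of 2.93 ± 1.34 SE had an adjusted p of 0.159. Act79B, another muscle actin, averaged 2.05 ± 0.818 CPM in tumour and 3.81 ± 1.81 CPM in control libraries (log2 fold change -0.89 ± 0.48 SE, adjusted p = 0.204).

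Myo31DF and Myo61F encode class I myosins, single-headed motors that sit between actin and membrane; both are known from the brush border of the fly midgut, and Myo31DF from the setting of left and right in the body. Myo31DF (FBgn0086347) lies on chromosome 2L between 10491814 and 10506779, and 479 bases of its exons overlap asRNA:CR44224 on the opposite strand. Myo31DF had 131, 193 and 142 CPM in tumour replicates 1, 2 and 3, against 56.0, 113 and 70.6 CPM in control replicates 1, 2 and 3. Replicate 2 was highest in both groups, and the groups did not overlap. Myo31DF averaged 155 ± 33.0 CPM in tumour and 79.9 ± 29.6 CPM in control libraries and rose 1.94-fold (log2 fold change 0.96 ± 0.28 SE, 95% interval 0.31 to 1.61, adjusted p = 0.04). The call was lost without tumour replicate 1 (adjusted p = 0.0751), tumour replicate 2 (0.0984), tumour replicate 3 (0.0772), control replicate 1 (0.088) or control replicate 3 (0.123). The sources used here do not give whether counting used the strand, and reads of asRNA:CR44224 may be in this count.

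Myo61F (FBgn0010246) lies on chromosome 3L between 1318480 and 1329617. Myo61F had 283, 371 and 235 CPM in tumour replicates 1, 2 and 3, against 199.8, 172 and 208 CPM in control replicates 1, 2 and 3. Tumour replicate 3 was close to the highest control library, and the groups did not overlap. Myo61F averaged 296 ± 68.7 CPM in tumour and 193 ± 18.4 CPM in control libraries and rose 1.53-fold (log2 fold change 0.62 ± 0.18 SE, 95% interval 0.21 to 1.03, adjusted p = 0.0359). The call was lost without tumour replicate 1 (adjusted p = 0.104), tumour replicate 2 (0.0992), control replicate 1 (0.0813), control replicate 2 (0.0875) or control replicate 3 (0.0752). The log2 ratio of Myo31DF to Myo61F counts was -0.93 ± 0.19 in tumour and -1.33 ± 0.64 in control libraries, which overlapped (two-sided exact permutation p = 0.4).

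**Figure D3:**
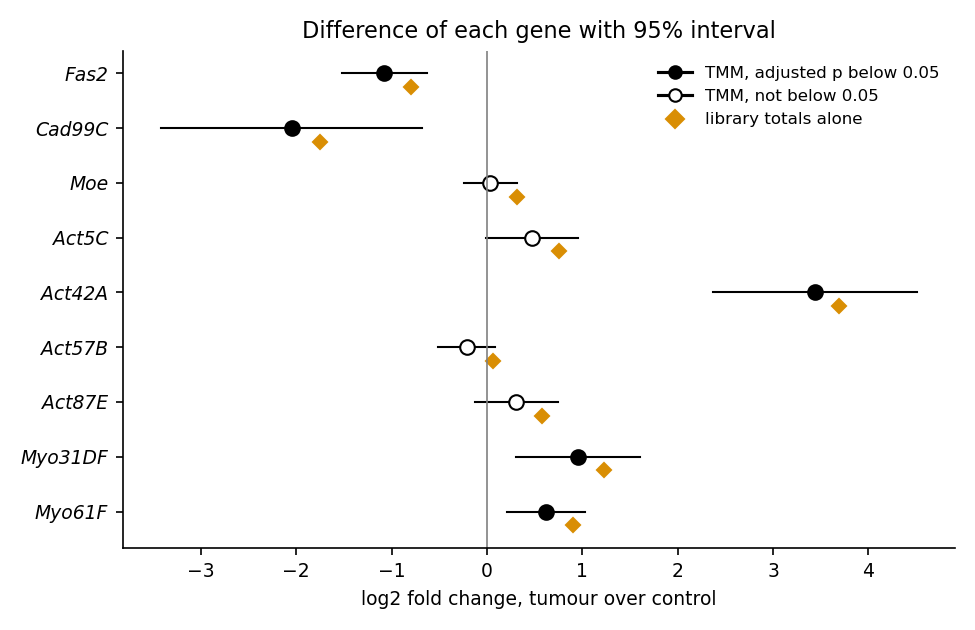
Log2 fold changes of tumour over control with TMM scaling (circles, with 95% intervals as lines; filled where the adjusted p was below 0.05) and with library totals alone as the scale (diamonds), for the 9 genes. Act42A lies farthest to the right at 3.44, Cad99C farthest to the left at -2.05, and library totals alone place every gene further to the right.

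**Figure D4:**
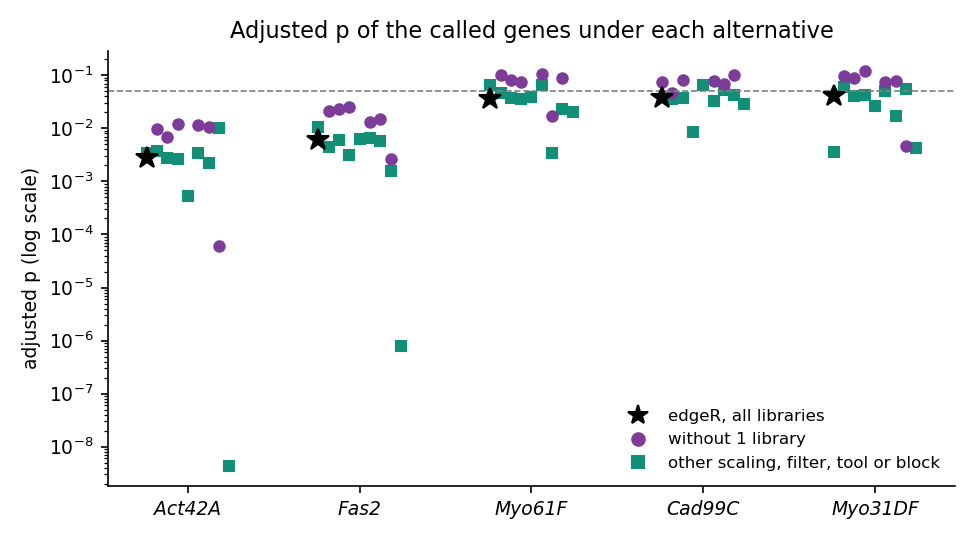
Adjusted p (log axis) of the 5 genes that passed, with all libraries (star), without 1 library (circles) and under the other scalings, filters, tools and the replicate block (squares); the dashed line marks 0.05. All points of Act42A and Fas2 lie below the line, whereas Myo61F, Cad99C and Myo31DF have points on both sides of it.

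Between genes, levels can be compared only per length. As mean CPM per kilobase of exon, the order in tumour libraries was Act5C (1216), Act42A (245), Moe (179.7), Myo61F (74.9), Fas2 (68.6), Act57B (53.6), Myo31DF (36.0), Act87E (7.38) and Cad99C (0.0526). In control libraries it was Act5C (877), Moe (176), Fas2 (145), Act57B (62.1), Myo61F (48.9), Act42A (22.6), Myo31DF (18.5), Act87E (5.96) and Cad99C (0.221). The ranges over libraries overlapped for Myo61F and Fas2 and for Fas2 and Act57B in tumour libraries, and for Moe and Fas2 and for Act42A and Myo31DF in control libraries, so these neighbours did not differ beyond their spread. Act42A stood directly after Act5C in tumour libraries and was among the lower genes in control libraries.

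For each of the 9 genes, the tested gene with the most similar pattern was found by the root mean square difference of log2 CPM, centred per gene, over the 6 libraries. Fas2 was most like nemy (0.069, where the median over all genes was 0.72), Cad99C most like Cluap1 (0.195) and Moe most like AlaRS (0.035). Act5C was most like Cyp12b2 (0.088), Act42A most like rho (0.308, where the median over all genes was 1.86), Act57B most like CG8993 (0.031) and Act87E most like Ctr1B (0.045). Myo31DF was most like LanB2 (0.127) and Myo61F most like sog (0.079).

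Of 25 genes of actin nucleation and turnover, 12 rose and 1 fell (median log2 fold change 0.49). The share called was 52%, against 27.8% of all tested genes, of which 14.8% rose and 13.0% fell. Without control replicate 3 the count that rose was 7. The gene that fell, DAAM, a formin that nucleates and elongates unbranched filaments, averaged 158 ± 8.64 CPM in tumour and 661 ± 107 CPM in control libraries (4.18-fold lower, log2 fold change -2.06 ± 0.15 SE, adjusted p = 1.01e-04). All 3 tumour libraries of DAAM were below all 3 control libraries. Abi, a subunit of the SCAR/WAVE complex that switches on the Arp2/3 complex, averaged 61.7 ± 2.43 CPM in tumour and 32.2 ± 3.13 CPM in control libraries (log2 fold change 0.94 ± 0.12 SE, adjusted p = 0.00104). Of the 5 SCAR/WAVE subunits measured, 4 rose (Abi, Cyfip, Hem and SCAR) and HSPC300 did not pass (0.65, adjusted p = 0.062). Of the 8 genes of the Arp2/3 complex, which starts branched filaments, 5 rose (Arpc3B, Arpc2, Arpc1, Arp3 and Arpc4), and in all 8 the tumour libraries were above the control libraries, with log2 fold changes of 0.35 to 0.83. That separation was held by 26.8% of all tested genes. Calls of Arpc1, Arpc4, Arp3, Hem and SCAR were lost without control replicate 3 (adjusted p = 0.0681, 0.0912, 0.0905, 0.0941 and 0.117) and without 2 to 4 other libraries each, whereas those of Abi, Cyfip, Arpc2 and Arpc3B held without any 1 library. These complexes were set apart as groups after their values were seen.

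Of the same list, tsr, chic and cib rose, whereas capt (log2 fold change 0.50, adjusted p = 0.128), twf (0.17, adjusted p = 0.465) and flr (0.18, adjusted p = 0.625) did not pass. The cofilin gene tsr, whose protein severs filaments, averaged 459 ± 60.8 CPM in tumour and 225 ± 24.7 CPM in control libraries (log2 fold change 1.03 ± 0.15 SE, adjusted p = 0.00192). The profilin gene chic averaged 481 ± 46.6 CPM in tumour and 297 ± 30.3 CPM in control libraries (0.69 ± 0.13 SE, adjusted p = 0.0073). The monomer-binding gene cib, related to beta-thymosins, averaged 77.6 ± 29.2 CPM in tumour and 25.5 ± 6.46 CPM in control libraries (1.61 ± 0.30 SE, adjusted p = 0.00897). In each of these 3 genes all tumour libraries were above all control libraries, as in 26.8% of all tested genes, and each passed under all 15 alternative settings.

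Among 15 tested genes of capping, bundling and crosslinking, 6 rose and 2 fell (median log2 fold change 0.33). The share called was 53.3%, against 27.8% of all tested genes. The count that rose was 2 without tumour replicate 1 or control replicate 3 and 3 without control replicate 1. The count that fell was 1 when tumour replicate 2 or 3, or any control replicate, was left out. The genes that rose were aru, Chd64, cpa, cpb, Tm1 and tmod, and those that fell were ena and Tm2, the last also a muscle marker. The EPS8-like gene aru averaged 39.3 ± 10.9 CPM in tumour and 16.9 ± 2.15 CPM in control libraries (log2 fold change 1.21 ± 0.21 SE, adjusted p = 0.00467). Enabled, from ena, keeps filament ends growing, and ena averaged 33.8 ± 6.99 CPM in tumour and 84.7 ± 23.1 CPM in control libraries (-1.33 ± 0.23 SE, adjusted p = 0.00506). The genes cpa and cpb, which encode the subunits of capping protein, had log2 fold changes of 0.69 (adjusted p = 0.0156) and 0.56 (adjusted p = 0.0127). The cpa call was lost without tumour replicate 1 (adjusted p = 0.0796), control replicate 1 (0.0517) or control replicate 3 (0.0621), and the cpb call without tumour replicate 1 (0.0617) or control replicate 3 (0.0524). The tmod call was lost in all 6 fits that left out 1 library (0.0628 to 0.153). Calls of Tm1 (0.0521 to 0.0666) and Tm2 (0.0583 to 0.0853) were each lost in 5 of the 6. Those of aru, Chd64 and ena held without any 1 library.

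Of 15 genes of the membrane skeleton and of Moesin's regulators, 4 rose and 0 fell in edgeR (also 0 in DESeq2 and limma), beside a Moe level that did not pass. The share called was 26.7%, close to the 27.8% of all tested genes. The median log2 fold change was 0.11. The 4 were the small GTPase genes Rho1, Cdc42 and Rac1, and flw, a phosphatase subunit gene; 7 of the 15 had an unadjusted p below 0.05. Rho1 averaged 597 ± 53.8 CPM in tumour and 375 ± 25.8 CPM in control libraries (log2 fold change 0.67 ± 0.12 SE, adjusted p = 0.00649). The Cdc42 call was lost without tumour replicate 1 (adjusted p = 0.057), and that of Rac1 without tumour replicate 1 (0.0568), tumour replicate 3 (0.0587) or control replicate 3 (0.0626). The flw call was lost in 5 of 6 fits that left out 1 library (0.0627 to 0.1), whereas that of Rho1 held in each. The count that rose was 1 when tumour replicate 1 was left out and 2 for tumour replicate 3 or control replicate 3. CG10939, whose product resembles the NHERF scaffolds that bind ezrin-type proteins, had a log2 fold change of 0.42 ± 0.14 SE and did not pass (adjusted p = 0.0506).

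Among 13 other myosin chains, 3 rose and 1 fell (median log2 fold change -0.17), a share of 30.8% that is close to the 27.8% of all tested genes. Those that rose form non-muscle myosin II: sqh, its regulatory light chain, averaged 339 ± 44.8 CPM in tumour and 166 ± 27.1 CPM in control libraries (log2 fold change 1.03 ± 0.16 SE, adjusted p = 0.00301), and the light chain Mlc-c and the heavy chain zip had log2 fold changes of 0.70 (adjusted p = 0.00727) and 0.72 (adjusted p = 0.021). The zip call was lost without tumour replicate 1 (adjusted p = 0.0588), tumour replicate 2 (0.0658), control replicate 1 (0.0663) or control replicate 3 (0.0714). The gene that fell, ck, encodes myosin VIIa, a motor of actin-based protrusions. It had 106, 94.2 and 86.5 CPM in tumour replicates 1, 2 and 3, against 208, 139 and 174 CPM in control replicates 1, 2 and 3 (log2 fold change -0.86 ± 0.16 SE, adjusted p = 0.00738). Leaving out tumour replicate 1 made the count that fell in this list 3.

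Of 10 other cadherin genes tested, 0 passed in edgeR and 2 had an unadjusted p below 0.05 (median log2 fold change 0.05); limma called 1 higher and library totals alone 3 higher. DESeq2 called 0 in either direction. Cad86C averaged 4.85 ± 0.39 CPM in tumour and 2.65 ± 0.879 CPM in control libraries (log2 fold change 0.87 ± 0.32 SE, adjusted p = 0.0792). The E-cadherin gene shg had a log2 fold change of 0.22 ± 0.11 SE (adjusted p = 0.165).

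**Figure D5:**
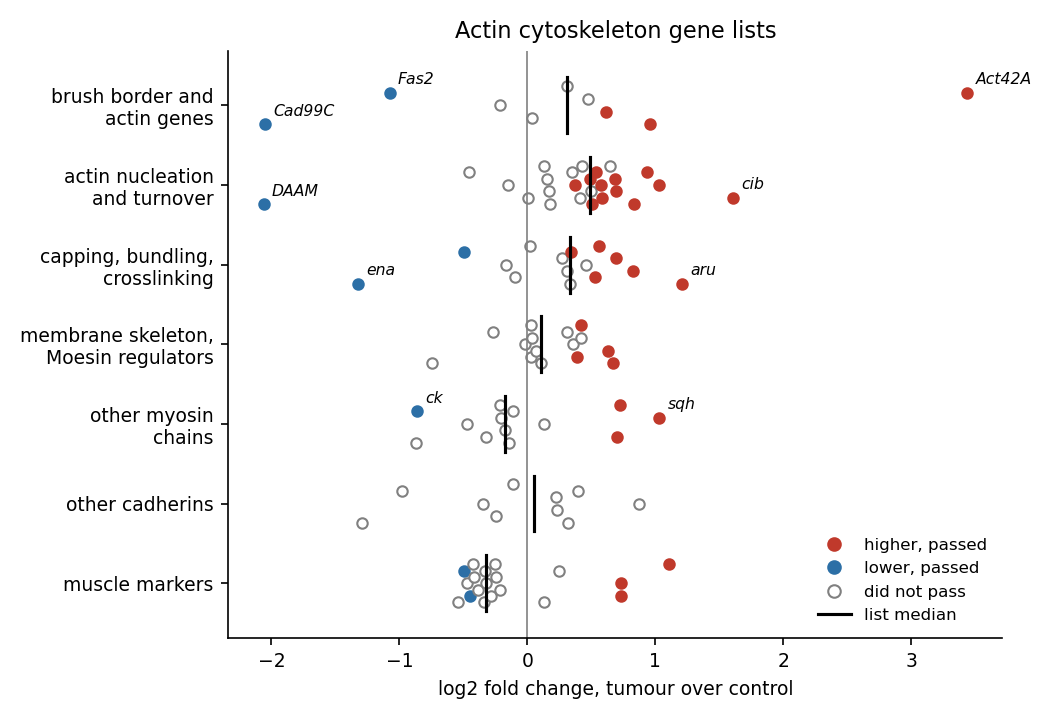
Log2 fold changes of tumour over control for the tested genes of 7 lists, 1 point per gene, filled red where higher and blue where lower with an adjusted p below 0.05, open otherwise; bars mark list medians. Medians run from 0.49 for actin nucleation and turnover to -0.32 for the muscle markers.

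Muscle markers were read beside the muscle actins. Their summed CPM was 932 to 1058 in tumour and 908 to 981 in control libraries. Of 19 tested, 3 rose (Mlp84B, Zasp52 and Obsc) and 2 fell (Tm2 and Prm), at a median log2 fold change of -0.32. The share called was 26.3%, close to the 27.8% of all tested genes. Of the 19, 14 had log2 fold changes below 0 and 10 had an unadjusted p below 0.05. In 8 all tumour libraries were below all control libraries (20.1% of all tested genes), and in 3 all were above (26.8%). The call of Obsc was lost without control replicate 1 (adjusted p = 0.0551) or 3 (0.0538). The count that fell was 6 if tumour replicate 1 was left out, 1 if control replicate 2 was, and 0 for each of the remaining libraries. The muscle myosin gene Mhc averaged 98.6 ± 9.72 CPM in tumour and 123 ± 4.31 CPM in control libraries and did not pass (log2 fold change -0.32 ± 0.11 SE, adjusted p = 0.0651). The part of muscle in the values of Act57B and Act87E was not tested.

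Markers of other cell types also moved. The share called was 75% of the midgut, 71.4% of the fat body, 28.6% of the hemocyte, 20% of the tracheal and 16.7% of the progenitor list. Of all tested genes, 27.8% were called, 14.8% higher and 13.0% lower. Of 12 midgut genes 9 fell, with a summed CPM of 29.9 to 117 in tumour and 230.0 to 609 in control libraries, and of 7 tested fat body genes 5 fell, with a sum of 393 to 745 CPM in tumour and 2953 to 6335 CPM in control libraries. Of 6 progenitor markers 1 rose (2 when tumour replicate 3 was left out, 3 for control replicate 3), zfh2 (21.1 ± 1.15 CPM in tumour and 3.11 ± 0.283 CPM in control libraries, adjusted p = 4.35e-05), and the list summed to 32.9 to 51.5 CPM in tumour and 13.2 to 14.5 CPM in control libraries. Of 7 tested hemocyte markers crq rose and PPO1 fell, neither in most fits that left out 1 library, with sums of 233 to 264 CPM in tumour and 177 to 209 CPM in control libraries. Of 5 tracheal markers Gasp fell (2 genes when tumour replicate 1 was left out, 0 for tumour replicate 2 or control replicate 3), with sums of 19.7 to 23.8 CPM in tumour and 29.3 to 36.2 CPM in control libraries. Of 5 neuronal markers 0 passed in edgeR, 1 had an unadjusted p below 0.05, and limma and DESeq2 each called 1 lower, as did edgeR when tumour replicate 1 was left out. All 5 had log2 fold changes below 0, and their sum was 19.6 to 25.0 CPM in tumour and 28.5 to 31.7 CPM in control libraries. The sums over the hemocyte and progenitor lists moved in the direction of Act42A, Myo31DF and Myo61F, but each list held genes of both signs. A single hemocyte marker reached 257 CPM, and 5 of the 7 tested had log2 fold changes below 0 (list median -0.13). Of the 6 progenitor markers, 5 had log2 fold changes above 0 (list median 1.57) and 4 had an unadjusted p below 0.05. DESeq2 called 3 of them higher. The marker esg was below 0 (-0.62, adjusted p = 0.339). Without tumour replicate 2, esg passed as lower (-1.37, adjusted p = 0.0195). The sums over the midgut, fat body, follicle, tracheal and neuronal lists moved in the direction of Fas2 and Cad99C. So did those of the principal and stellate cell lists given above. The part of these lists in the results was not tested.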

How the data were processed

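Read counts per gene, not normalised, were deposited by the authors in a single table with a column for each library; it lists 17611 genes, of which 3658 have 0 counts throughout. Per the labels' protocols, RNA with an integrity number above 7 was poly-A selected and sequenced on an Illumina instrument. TopHat, Cufflinks and HTSeq are named, with no version or role, per the submitters' processing notes; for the build, the annotation, strand use and reads matching several genes, the method is not given in the sources used here. Coordinates and exon lengths come from Ensembl BDGP6 by FlyBase identifier and do not describe the build of the counts.

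Computed here with Python 3.11.15 (scipy 1.17.1) and R 4.3.3 (DESeq2 1.42.0, limma 3.58.1 and edgeR 4.0.16): filterByExpr by group (minimum count 10, minimum total 15) left 9789 genes, tested by edgeR's robust quasi-likelihood test after TMM scaling, two-sided, adjusted by Benjamini-Hochberg over all genes tested, threshold 0.05. The SE is the log2 fold change's size over the square root of F. The fit was tested on simulated data. Ratios and shares used exact permutation tests over libraries.

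The 9 genes and the lists were chosen with earlier results of these data known. Named genes were the 9, up to 3 per list with the smallest adjusted p, the 3 most expressed per marker list (not all are printed) and the most similar gene for each of the 9; other genes named were chosen after their values were seen. Alternatives were RLE, upper-quartile and library-total scaling, leaving out the 20 most abundant genes, other filters, DESeq2, limma-voom, a replicate block, each library left out and summed actin genes.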

Additional observations from a re-analysis of the deposited data

How the results depend on the processing

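Act42A and Fas2 kept direction and call under every alternative run on each gene alone, and the calls of Cad99C, Myo31DF and Myo61F did not; the cause was not tested. With RLE scaling 1 of the 9 genes rose, and the log2 fold change of Moe was -0.032. The edgeR calls of Myo31DF (0.89, adjusted p = 0.0512) and Myo61F (0.55, adjusted p = 0.0648) were lost. With upper-quartile scaling Moe was at -0.018. There the call of Myo31DF was lost (0.90, adjusted p = 0.0593), and that of Myo61F held (adjusted p = 0.0464). With library totals alone, where the median of all genes moved to 0.37, 3079 genes rose and 830 fell (78.8% of calls higher, against 53.3% with TMM), and 6 of the 9 genes rose and 1 fell. Of the lists of actin, membrane skeleton, myosin and cadherin genes together, 41 genes rose, against 25 with TMM. Cad99C was at -1.75 and did not pass (adjusted p = 0.0522). Moe was at 0.32, Act5C at 0.75, Act57B at 0.068 and Act87E at 0.58. RLE, upper-quartile scaling, DESeq2 and leaving out tumour replicate 1 put 44.8%, 45.6%, 44.5% and 43.8% of calls higher. With no filter Myo31DF was at 0.97 and did not pass (adjusted p = 0.0549). With a filter of 5 CPM in 3 libraries Moe was at -0.01 and 1 of the 9 fell, Cad99C not being tested. In DESeq2 Moe was at -0.032. Summed with their partners, Act42A with Act5C was at 0.60 and Act87E with Act57B at -0.15.

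Replicate numbers are shared by the groups, and the labels state no pairing. Correlations of same-numbered deviations were 0.082, -0.083 and 0.058. The highest correlation between the groups was that of tumour replicate 3 with control replicate 2 (0.102). These values show no pairing by number but cannot exclude one, since each deviation is taken from a mean of 3 libraries. With the replicate block 1345 genes rose and 1193 fell, and 1 of the 9 fell. Act5C (log2 fold change 0.49, adjusted p = 0.0347) and Myo31DF (1.0, adjusted p = 0.00363) passed, and Cad99C (-2.19, adjusted p = 0.065) and Myo61F (0.59, adjusted p = 0.0661) did not.

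Leaving out 1 library gave 865 to 1223 genes higher and 882 to 1141 lower, and 1 to 2 of the 9 higher and 1 to 2 lower. Of the lists of actin, membrane skeleton, myosin and cadherin genes together, 13 to 27 genes were higher and 3 to 6 lower, against 25 and 4 with all libraries. The ranges of log2 fold change were 3.16 to 4.06 for Act42A, -0.38 to -0.13 for Act57B, 0.28 to 0.63 for Act5C, 0.17 to 0.44 for Act87E, -2.46 to -1.66 for Cad99C, -1.25 to -0.95 for Fas2, -0.042 to 0.092 for Moe, 0.76 to 1.29 for Myo31DF and 0.43 to 0.75 for Myo61F. Of 480 list counts, 396 stayed within 1.5 times and 84 did not. The 396 include counts that were 0 in the main fit and under every alternative, such as midgut, fat body and tracheal genes higher in tumour. They therefore overstate how stable the list counts were. Cad99C had the lowest depth of the 9 genes, with 5 to 52 counts per library.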
